A study of Cricetulus griseus with 6 samples.

Results

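The tetraspanin genes were examined in CHO-T cells, a Chinese hamster ovary line, after silencing of *Xbp1*, the transcription factor of the endoplasmic reticulum stress response whose mRNA is spliced by IRE1α. The members are the rows whose symbol starts with *Tspan* and a number, together with *Cd9*, *Cd37*, *Cd53*, *Cd63*, *Cd81*, *Cd82* and *Cd151*: 28 of 27873 rows, each present once. The cells of both conditions had been infected with a retrovirus carrying mouse T-cadherin cDNA and selected with puromycin. They were then transfected with negative control siRNA (n = 3 libraries) or with *Xbp1* siRNA of a single sequence (n = 3 libraries), and were harvested 48 h later. Separate cultures are not named in the labels, so the p-values measure the spread between these libraries, which may be technical. Loss of *Xbp1* and other effects of that siRNA sequence cannot be told apart in this design.

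Tetraspanins are small membrane proteins with a large extracellular loop, and they gather integrins, proteases and immunoglobulin-type proteins into patches of the membrane. Several of them, above all CD9, CD63 and CD81, are abundant on exosomes and serve as markers of these vesicles. CD63 is held mainly in late endosomes and lysosomes, and CD9, CD81 and CD151 mainly at the cell surface. Members of the TspanC8 group carry the protease ADAM10 out of the endoplasmic reticulum.

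Expression was given as FPKM, the sequenced fragments of a gene scaled to its length and to the size of the library, which allows the levels of different genes to be compared. The 6 libraries sum to between 593487 and 666267 FPKM, and the steps in their low values gave a sequencing depth of 94.0% to 116% of that of control replicate 1. *Xbp1*, the silenced gene, had 26.8 ± 1.35 FPKM (SD, n = 3) in control cells and 1.89 ± 0.440 FPKM (SD, n = 3) after *Xbp1* siRNA. Of the leukocyte markers, *Ptprc*, *Cd3e* and *Lcp2* were listed at 0 in every library, *Itgam* did not exceed 0.0595 FPKM, and *Cd68*, a lysosomal protein of macrophages and other cells, had 5.18 to 8.80 FPKM. Of 6 mesenchymal markers, *Vim*, *Lgals1*, *S100a6* and *Fn1* were present, and *Col1a1* and *Col1a2* were listed at 0. Of 6 epithelial markers, *Krt8* and *Cldn4* had no row, *Krt18* and *Krt19* were listed at 0, and *Epcam* did not exceed 5.44 FPKM.

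In control cells the family was dominated by *Cd63*. Its mRNA stood at 688, 709 and 639 FPKM in the 3 control libraries, above 99.3% of all rows with a value over 0. *Cd151*, *Tspan7*, *Tspan3* and *Cd9* followed with control means of 143, 131, 125 and 102 FPKM. Together these 5 genes made up 80.0% ± 0.773 (SD, n = 3) of the summed tetraspanin level. *Tspan31*, *Tspan4*, *Tspan6* and *Cd81* lay between 44.8 and 85.3 FPKM, and *Tspan14*, *Tspan9*, *Tspan17*, *Tspan5* and *Tspan2* between 5.31 and 21.7 FPKM. *Tspan12* and *Tspan16* stood near 1 FPKM, with 1.12 ± 0.111 FPKM and 1.01 ± 0.107 FPKM (SD, n = 3). The remaining 12 genes had a control mean under 0.5 FPKM or were at 0. Among the members above that limit, the control ranges of neighbours in this order overlapped only for *Tspan6* and *Cd81* and for *Tspan12* and *Tspan16*.

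**Figure D1:**
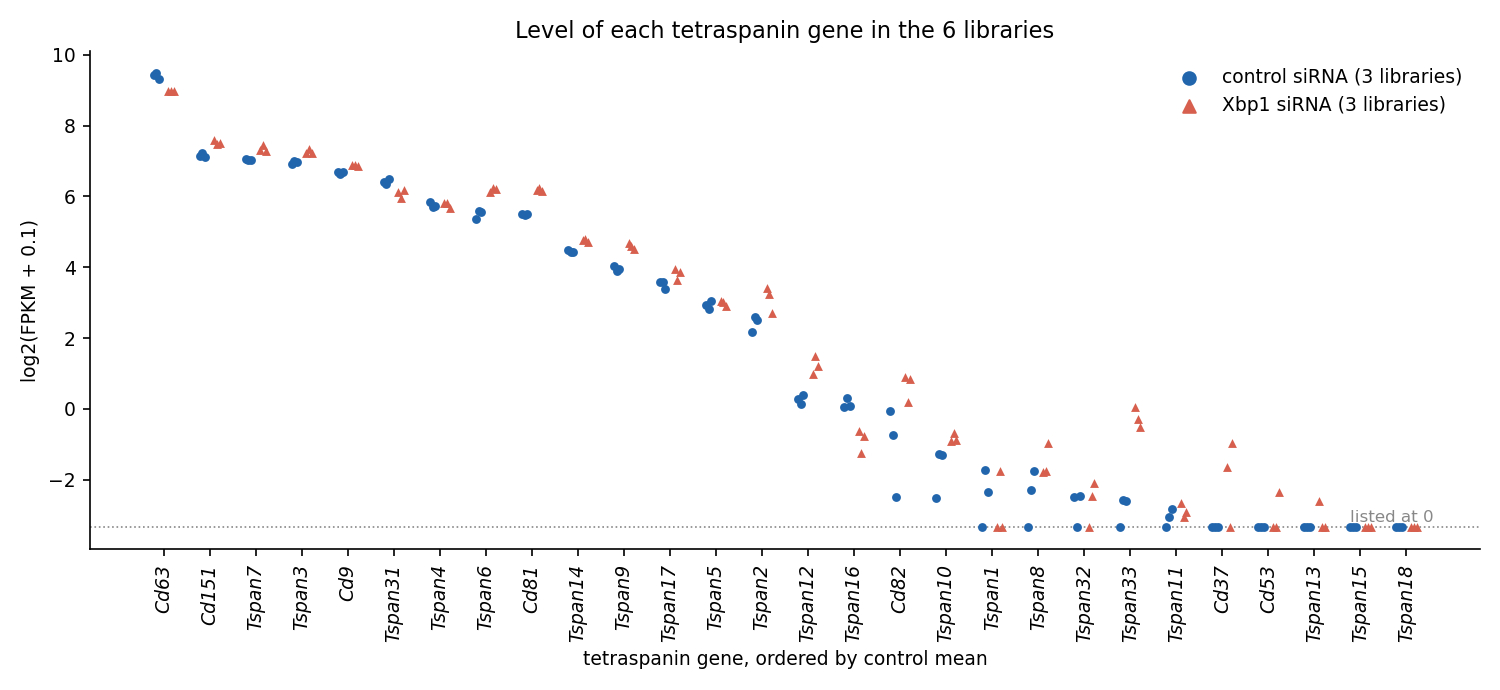
Level of each tetraspanin gene as log2(FPKM + 0.1) on the vertical axis, with genes ordered by their control mean; each circle is a control library and each triangle an *Xbp1* siRNA library (3 of each). *Cd63* stands far above the others in both conditions, and the triangles of *Cd81*, *Tspan6*, *Tspan9* and *Tspan33* lie above the circles.

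Several of the members at or near 0 are known from blood cells. *Cd37* and *Cd53*, tetraspanins of leukocytes, were listed at 0 in all control libraries, and *Tspan32*, expressed in blood cells, did not exceed 0.136 FPKM in any of the 6. *Tspan15*, a TspanC8 member, and *Tspan18* were listed at 0 in all 6 libraries. In the RefSeq gene table of the Chinese hamster, 3 pairs of members follow each other as protein-coding genes: *Cd81* and *Tspan32*, *Cd82* and *Tspan18*, and *Tspan9* and *Tspan11*. Within the first and the last pair an expressed gene stands beside a nearly silent one: *Tspan9* had 15.5 ± 0.892 FPKM in control cells against 0.0205 ± 0.0202 FPKM for *Tspan11* (SD, n = 3).

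After *Xbp1* silencing, most of the expressed tetraspanin mRNAs were higher, and the most abundant one was lower. The 21 members with a mean of at least 0.1 FPKM were tested with limma on log2(FPKM + 0.1), in a fit over 14361 genes, and a gene is said to have risen or fallen here when its adjusted p was under 0.05. By this test 12 members rose and 3 fell, where 20.2% of all genes tested were higher and 20.2% lower, or 40.4% in either direction. *Cd81*, *Tspan6*, *Tspan9*, *Tspan12* and *Tspan33* were among those that rose, and *Cd63*, *Tspan31* and *Tspan16* fell. The median log2 fold change of the 21 members was 0.38, against 0.0063 over all genes tested. *Tspan33* and *Cd37* had control means under 0.1 FPKM and entered the test only through the *Xbp1* siRNA libraries. Over the other 19 members the median was 0.32, and 11 of them rose.

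Expressed genes pass more easily, so the same count was made at a higher level. Of the 15 members with a mean of at least 1 FPKM, 11 rose and 2 fell, beside 24.1% higher and 25.1% lower (49.2% in either direction) among the 11610 genes at that level. In 14 members all *Xbp1* siRNA libraries lay above all control libraries, and in 3 all lay below, against 26.1% and 25.8% of all genes tested. Calls of at least 2-fold were rare: *Tspan33* rose and *Tspan16* fell by that much, where 2.69% and 2.5% of all genes did so. Since *Tspan33* entered the test as described above, its call adds nothing to these counts, and without it 13 members lay above all controls. No member with a mean of at least 1 FPKM was called 2-fold changed on the log2(FPKM + 0.1) scale. Among all genes at that level 2.08% were called higher and 2.55% lower. The furthest of these members was *Tspan12* at a log2 fold change of 0.95, while the ratio of its mean FPKM was 2.03. With a pseudocount of 0.01 its log2 fold change was 1.01 and it was called 2-fold higher, and with a pseudocount of 1 it was 0.62. Bulk values do not tell a change in every cell from a change in the share of some cells.

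**Figure D2:**
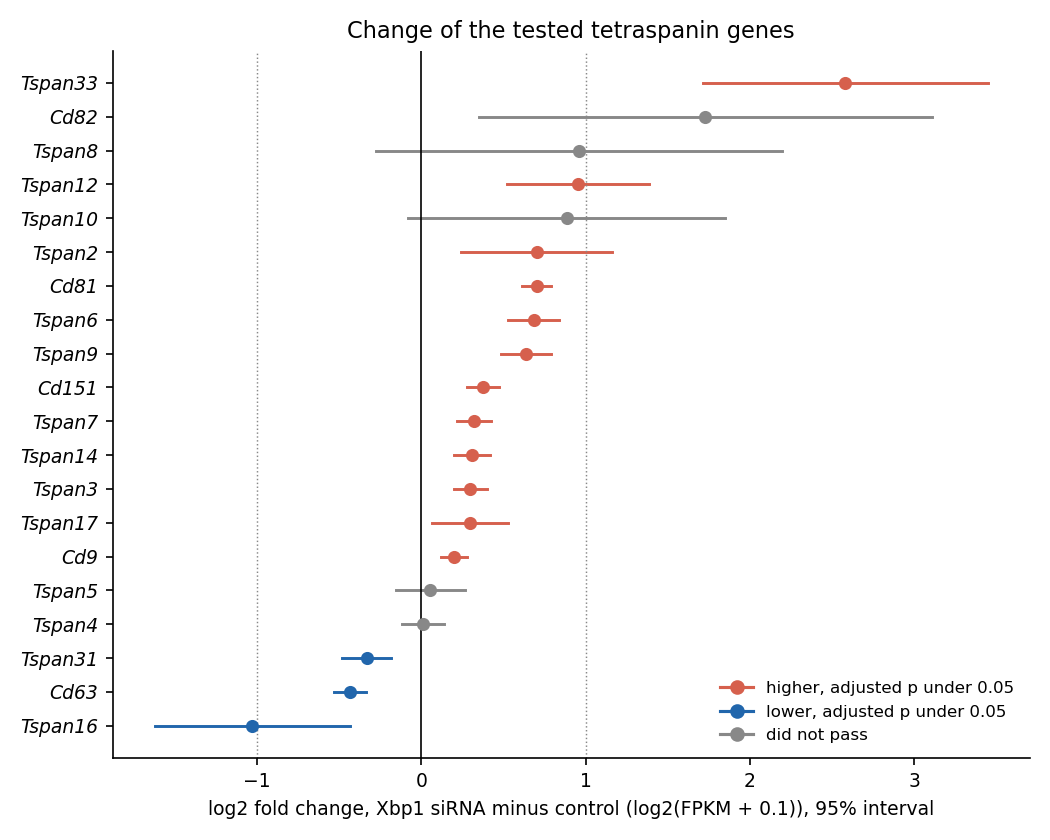
Log2 fold change (*Xbp1* siRNA minus control, on the log2(FPKM + 0.1) scale) of the tested members other than *Cd37*, which has too few reads for a fold, on the horizontal axis, with 95% intervals from limma; red genes were higher and blue genes lower at an adjusted p under 0.05, grey genes did not pass, and dotted lines mark a 2-fold change. Of the 12 red points, 11 lie between 0 and 1 and *Tspan33* stands at 2.58.

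The exosome markers did not move together. *Cd63* had 688, 709 and 639 FPKM in control cells and 504, 502 and 498 FPKM after *Xbp1* siRNA. All 3 *Xbp1* siRNA libraries lay below all controls, and they were closer to each other than the controls were. The log2 fold change was −0.44 (SE 0.041, adjusted p = 1.67e-04, limma). It depended on the scaling: after quantile normalization, which forces the libraries to the same distribution, it was −0.13, with an adjusted p of 0.0286 by limma.

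*Cd81*, which partners CD9 and immunoglobulin-type proteins at the surface, moved the other way. It had 44.8, 44.3 and 45.3 FPKM in control cells and 72.0, 75.5 and 71.4 FPKM after *Xbp1* siRNA, with a wide gap between the groups. Its log2 fold change of 0.70 (SE 0.037, adjusted p = 1.22e-05, limma) stayed between 0.68 and 0.76 under the 14 alternatives. *Cd9* was at 104, 98.6 and 104 FPKM in control cells and at 118, 117 and 117 FPKM after silencing. The groups did not overlap, but the rise was small, with a log2 fold change of 0.20 (SE 0.033, adjusted p = 0.00259, limma). With these unequal changes the level of *Cd63* was 15.1 ± 0.960 times that of *Cd81* in control cells and 6.87 ± 0.190 times after *Xbp1* siRNA (SD, n = 3 each). Against *Cd9* the same ratio went from 6.66 ± 0.522 to 4.28 ± 0.0074 (SD, n = 3 each).

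*Cd151*, which binds laminin-binding integrins, had 142, 149 and 139 FPKM in control cells and 195, 180 and 183 FPKM after *Xbp1* siRNA. The lowest silenced library was above the highest control, and the log2 fold change was 0.38 (SE 0.043, adjusted p = 3.98e-04, limma). *Cd82*, known as a metastasis suppressor, was weakly expressed, with 0.859, 0.499 and 0.0797 FPKM in control cells and 1.75, 1.03 and 1.68 FPKM after silencing. These values correspond to 11, 6 and 1 reads and to 23, 13 and 25 reads. The groups did not overlap, the controls were uneven, and *Cd82* did not pass the test (log2 fold change 1.73, SE 0.59, adjusted p = 0.0509, limma). Without control replicate 1 its log2 fold change was 2.24 (adjusted p = 0.0204, limma), and with a pseudocount of 1 it was 0.77 (adjusted p = 0.0260, limma). Without control replicate 3 it was 1.04 and did not pass (adjusted p = 0.0530, limma), and in the other fits that left a library out the adjusted p reached 0.134 (limma). Counted over the groups, the depth-corrected ratio of its reads was 3.12, with an exact 95% interval of 1.82 to 5.62 that covers counting error only.

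Apart from *Cd63*, the fall of an abundant member was seen in *Tspan31*, a gene amplified in sarcomas. It had 84.6, 81.4 and 89.9 FPKM in control cells and 69.1, 61.9 and 72.2 FPKM after *Xbp1* siRNA. The highest silenced library stayed under the lowest control, and the log2 fold change was −0.33 (SE 0.065, adjusted p = 0.00514, limma).

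*Tspan7*, known from an X-linked intellectual disability, and *Tspan3* rose by similar amounts. *Tspan7* had 132, 131 and 130 FPKM in control cells and 160, 174 and 156 FPKM after silencing. *Tspan3* had 120, 128 and 126 FPKM in control cells and 149, 161 and 151 FPKM after silencing. Neither gene had overlapping groups, and their log2 fold changes were 0.32 (SE 0.045) and 0.30 (SE 0.042), with adjusted p of 0.00112 and 0.00108 by limma.

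*Tspan6* and *Tspan9* showed larger rises at lower levels. *Tspan6*, reported to bind the exosome protein syntenin, had 40.9, 48.3 and 47.1 FPKM in control cells and 69.9, 75.3 and 73.3 FPKM after *Xbp1* siRNA. *Tspan9*, known from platelets, had 16.4, 14.7 and 15.4 FPKM in control cells and 25.5, 24.0 and 22.9 FPKM after silencing. The gap between the groups was several times the spread within them for both genes. The log2 fold changes were 0.68 (SE 0.067, adjusted p = 2.03e-04, limma) for *Tspan6* and 0.63 (SE 0.065, adjusted p = 2.51e-04, limma) for *Tspan9*. *Tspan4*, which builds the migrasomes left behind by moving cells, did not pass the test: 57.2, 52.4 and 52.5 FPKM in control cells stood beside 55.6, 56.2 and 51.1 FPKM. Its log2 fold change was 0.0082, and the 95% interval of −0.12 to 0.14 leaves out changes of the size seen in *Cd151* or *Cd81*.

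The summed FPKM of the family was similar between the conditions while its make-up differed. The 28 genes summed to 1478, 1506 and 1437 FPKM in control cells and to 1485, 1490 and 1456 FPKM after *Xbp1* siRNA, a ratio of 1.00. As a share of all FPKM in the library, whose total was lower after silencing, they were 0.222%, 0.230% and 0.222% in control cells and 0.249%, 0.251% and 0.242% after *Xbp1* siRNA. By that measure all silenced libraries lay above all controls. Without *Cd63* the sum was 795 ± 3.78 FPKM in control cells and 976 ± 15.8 FPKM after silencing (SD, n = 3 each), or 22.7% more. The share of *Cd63* in the family went from 46.0% ± 1.38 to 33.9% ± 0.253 (SD, n = 3 each), and the libraries of the groups did not overlap. The share of *Cd151* went from 9.72% ± 0.144 to 12.6% ± 0.516 and that of *Cd81* from 3.04% ± 0.105 to 4.94% ± 0.111 (SD, n = 3 each). After silencing *Cd81* was the sixth most abundant member by its mean in place of the ninth. Its values overlapped those of *Tspan6* in both conditions and, after silencing, those of *Tspan31* too, so these places are not separated by the libraries. The ratio of the sums also rests on the scaling, and it was 1.13 after quantile normalization.

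**Figure D3:**
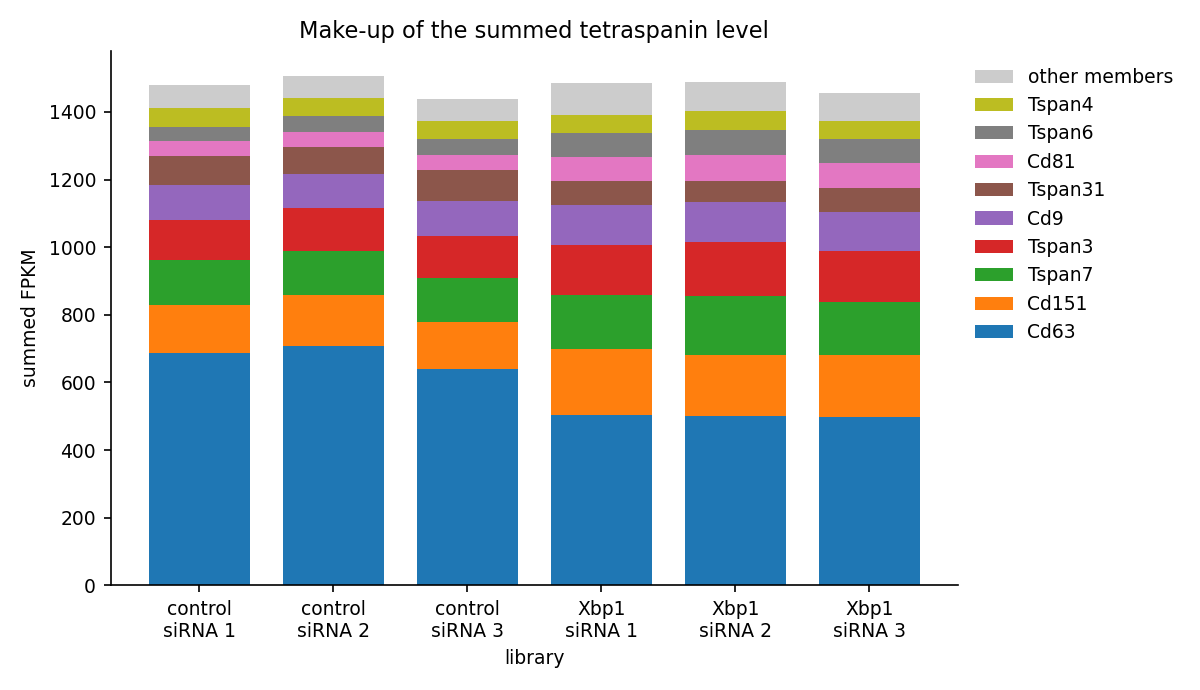
Summed FPKM of the 28 tetraspanin genes in each library (vertical axis, linear from 0), divided into the 9 most abundant genes and the other members. The bars have nearly the same height, from 1437 to 1506 FPKM, while the *Cd63* segment at the bottom is shorter in the 3 *Xbp1* siRNA libraries.

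The TspanC8 members determine where ADAM10 goes and which proteins it cleaves. Of the 6 genes, 5 were tested, *Tspan14*, *Tspan17* and *Tspan33* rose and none fell, beside 20.2% of all genes in each direction, while *Tspan5* and *Tspan10* did not pass the test. Without *Tspan33*, 2 of 4 rose, and the call of *Tspan17* was lost under 10 of 14 alternatives. *Tspan14*, the most abundant of them, had 22.1, 21.3 and 21.6 FPKM in control cells and 27.4, 27.4 and 25.9 FPKM after silencing. The groups were clearly apart, with a log2 fold change of 0.31 (SE 0.047, adjusted p = 0.00157, limma).

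*Tspan17* had 11.8, 11.9 and 10.4 FPKM in control cells and 15.4, 12.3 and 14.3 FPKM after *Xbp1* siRNA. The second silenced library came close to the controls, and the log2 fold change of 0.30 (SE 0.099, adjusted p = 0.0472, limma) was just past the limit. It passed with all libraries and in 1 of the 6 fits that left a library out, the one without *Xbp1* siRNA replicate 2 (adjusted p = 0.0167, limma). Without control replicate 1, 2 or 3 the adjusted p was 0.0701, 0.0720 and 0.133, and without *Xbp1* siRNA replicate 1 or 3 it was 0.140 and 0.127 (limma). With the replicate number as a block it was 0.0611, with a pseudocount of 1 it was 0.0514, without a filter 0.0604, after quantile normalization 0.0595 and with eBayes without trend 0.0843 (limma). *Tspan5* had 7.49, 6.93 and 8.23 FPKM in control cells and 8.19, 7.93 and 7.37 FPKM after silencing, overlapping in full. Its log2 fold change was 0.054, with a 95% interval of −0.16 to 0.27.

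*Tspan33* showed the largest relative change of the family, from a level close to 0. It was listed at 0, 0.0679 and 0.0651 FPKM in control cells and at 0.934, 0.715 and 0.604 FPKM after *Xbp1* siRNA. In reads these are 0, 1 and 1 against 15, 11 and 11, so every silenced library stood above every control. The depth-corrected ratio of the reads was 17.1, with an exact 95% interval of 4.40 to 146 for counting error. The fitted log2 fold change of 2.58 (SE 0.37, adjusted p = 0.00124, limma) depends on the pseudocount, and was 0.74 with a pseudocount of 1 and 4.27 with 0.01. *Tspan33* passed the filter only through the *Xbp1* siRNA libraries, so this adjusted p gives no support of its own. Even after this rise *Tspan33* made up 1.5% ± 0.273 of the summed TspanC8 level, while *Tspan14* held 53.9% ± 1.95 (SD, n = 3 each). *Tspan10* had 1, 4 and 4 reads in control cells and 6, 7 and 7 after silencing. It did not pass the test (log2 fold change 0.89, adjusted p = 0.129, limma), and without control replicate 1 its log2 fold change was 0.48 (adjusted p = 0.269, limma).

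**Figure D4:**
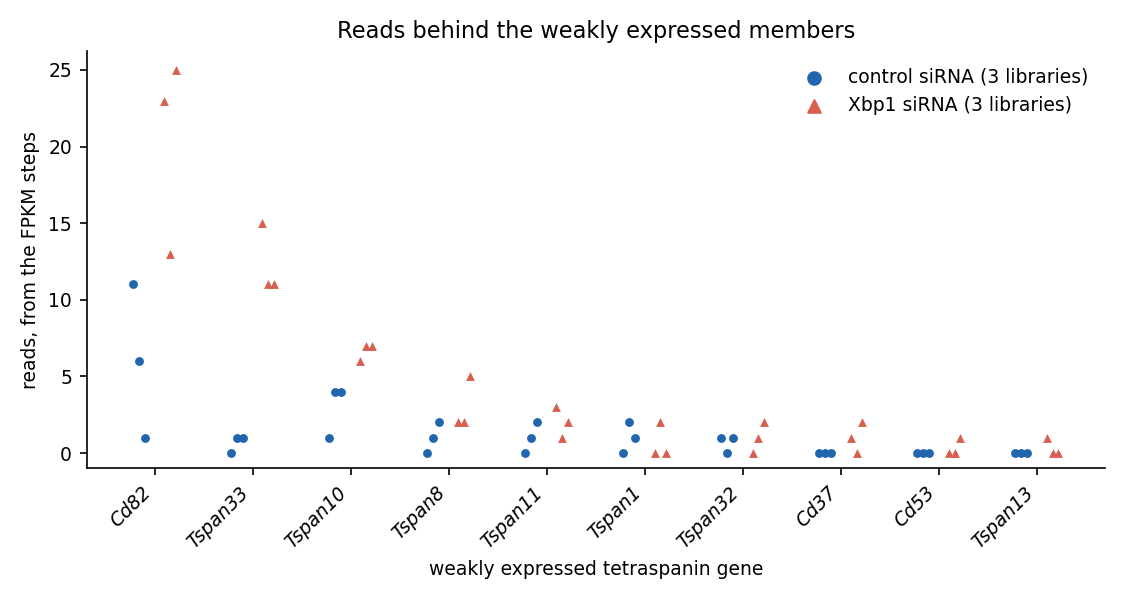
Reads behind the weakly expressed members in each library (vertical axis, linear), as read from the steps of the FPKM values; circles are control libraries and triangles *Xbp1* siRNA libraries (3 of each). *Tspan33* has 0 to 1 reads in control cells and 11 to 15 after silencing, and the 7 genes at the right have 5 reads or fewer in every library.

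*Tspan12* acts with the receptor FZD4 in Norrin signalling. It had 1.12, 1.00 and 1.23 FPKM in control cells and 1.89, 2.71 and 2.21 FPKM after *Xbp1* siRNA, with no overlap. The log2 fold change was 0.95 (SE 0.18, adjusted p = 0.00503, limma), just under 2-fold on the log2(FPKM + 0.1) scale. The ratio of the mean FPKM was 2.03. With a pseudocount of 0.01 the log2 fold change was 1.01, and with a pseudocount of 1 it was 0.62. *Fzd4* itself had 0.638, 0.678 and 0.743 FPKM in control cells and 1.60, 1.61 and 1.54 FPKM after silencing. It rose by a log2 fold change of 1.10 (SE 0.17, adjusted p = 0.00194, limma), which was 0.62 with a pseudocount of 1.

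*Tspan2*, known from myelinating cells, had 4.44, 5.89 and 5.6 FPKM in control cells and 10.6, 9.42 and 6.44 FPKM after *Xbp1* siRNA. The silenced libraries were uneven, and the third came near the controls. The log2 fold change was 0.70 (SE 0.20, adjusted p = 0.0242, limma). The adjusted p was 0.0746 without control replicate 1, and 0.0752 and 0.0766 without *Xbp1* siRNA replicates 1 and 2 (limma). With eBayes without trend it was 0.0596 (limma).

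*Tspan16* was the only member lower by 2-fold or more. It had 0.944, 1.14 and 0.963 FPKM in control cells and 0.553, 0.321 and 0.488 FPKM after *Xbp1* siRNA. The groups did not overlap, and the log2 fold change was −1.03 (SE 0.25, adjusted p = 0.0146, limma). Without control replicate 2 it was −0.95 (adjusted p = 0.0537, limma), without *Xbp1* siRNA replicate 2 it was −0.84 (adjusted p = 0.0376, limma), and with a pseudocount of 1 it was −0.47. In the RefSeq table *Tspan16* and *Cd82* each overlap a long noncoding gene, as do *Cd9* and *Tspan32*, while *Tspan7* and *Tspan10* each overlap a coding gene, by 453 and 26 bases. How reads of such overlaps were assigned is not given in the sources used here.

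The other members rest on single reads. *Tspan8*, a tetraspanin of epithelial tumours, had 0, 1 and 2 reads in control cells and 2, 2 and 5 after silencing (adjusted p = 0.191, limma). *Cd37* had no read in control cells and 1, 0 and 2 after silencing, and its adjusted p was 0.156; without *Xbp1* siRNA replicate 2 it was 0.0264 (limma). Both conditions are at or under 3 reads over the group there, so no fold is given. *Tspan1*, *Tspan11*, *Tspan13*, *Tspan32* and *Cd53* were above 0 in at least 1 library but had a mean under 0.1 FPKM and were not tested. They had 3 reads or fewer in every library, at which no difference was detectable.

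The genes of proteins reported to bind tetraspanins were also examined, as a list of 18 chosen by function with earlier results of these data known. Of these, 15 were tested, 5 rose and 5 fell, beside the 20.2% in each direction given above. *Vcam1*, with a control mean of 0.0893 FPKM, entered the test only through the *Xbp1* siRNA libraries and did not pass. *Ptgfrn*, whose protein is a main direct partner of CD9 and CD81, showed the largest fall of the list. It had 148, 150 and 150 FPKM in control cells and 37.2, 37.6 and 37.0 FPKM after *Xbp1* siRNA. The groups were far apart and the libraries within each differed by little. The log2 fold change was −2.0 (SE 0.031, adjusted p = 1.45e-07, limma), and under the 14 alternatives it lay between −2.0 and −1.92. With *Cd9* and *Cd81* rising, the level of *Cd9* went from 0.685 ± 0.0229 to 3.14 ± 0.0210 times that of *Ptgfrn* (SD, n = 3 each), and that of *Cd81* from 0.301 ± 0.0039 to 1.96 ± 0.0417 times (SD, n = 3 each).

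*Igsf8*, of the same immunoglobulin-type group and also bound by CD9 and CD81, went the other way. It had 15.4, 13.8 and 12.9 FPKM in control cells and 20.4, 17.3 and 18.9 FPKM after silencing, with no overlap. The log2 fold change was 0.43 (SE 0.087, adjusted p = 0.00649, limma).

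The integrin genes of the list that passed were lower, in contrast to *Cd151*. *Itgb1* had 560, 567 and 567 FPKM in control cells and 358, 371 and 367 FPKM after silencing. Its log2 fold change was −0.63 (SE 0.027, adjusted p = 5.61e-06, limma), and −0.41 after quantile normalization. *Itga3* had a log2 fold change of −0.47 (SE 0.046, adjusted p = 1.98e-04, limma). *Itgb4* had a log2 fold change of −0.21 and did not pass (adjusted p = 0.0894, limma), and *Itga4* and *Itga6* were below the limit of 0.1 FPKM.

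*Adam10*, the protease served by the TspanC8 group, had 27.1, 30.9 and 30.3 FPKM in control cells and 33.5, 33.6 and 31.8 FPKM after silencing. The groups did not overlap, but the log2 fold change of 0.16 (SE 0.061) did not pass the test, with an adjusted p of 0.0668 by limma. It passed after quantile normalization, with an adjusted p of 0.0318 (limma). *Sdcbp*, the gene of syntenin, which binds CD63, had 34.3, 37.6 and 38.0 FPKM in control cells and 32.8, 34.1 and 30.5 FPKM after silencing. Its log2 fold change was −0.18 (SE 0.060), and the adjusted p of 0.0531 (limma) missed the limit; it was 0.0268 without control replicate 1 and 0.0493 without *Xbp1* siRNA replicate 2, and 0.0453 with the filter at 1 FPKM.

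*Icam1*, a leukocyte adhesion molecule found in tetraspanin patches, rose from 60.1 ± 1.65 to 201 ± 6.95 FPKM (SD, n = 3 each), a log2 fold change of 1.74 (SE 0.039, adjusted p = 5.43e-07, limma). *Epcam*, an epithelial adhesion molecule, had 1.94, 1.80 and 1.73 FPKM in control cells and 5.44, 4.20 and 4.52 FPKM after silencing, a log2 fold change of 1.32 (SE 0.14, adjusted p = 2.56e-04, limma). With *Cdh1*, the gene of E-cadherin, it made up the summed epithelial markers, which were at 1.83 to 2.16 FPKM in control cells and at 4.59 to 5.79 FPKM after silencing. *Cdh1* had 0.223, 0.0296 and 0.142 FPKM in control cells and 0.353, 0.397 and 0.551 FPKM after silencing. It just passed the test with a log2 fold change of 1.29 (SE 0.43, adjusted p = 0.0489, limma), and the call was lost under 8 of 13 alternatives, with adjusted p of up to 0.145 without *Xbp1* siRNA replicate 3.

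*Cd68* was at 5.18 to 6.15 FPKM in control cells and at 6.99 to 8.80 FPKM after silencing. Of the 4 mesenchymal markers tested, 3 fell and 1 rose, beside 20.2% of all genes in each direction, and the sum of the list lay between 2686 and 2906 FPKM in control cells and between 1459 and 1528 FPKM after silencing. *S100a6*, of a calcium-binding protein, held most of that sum, with 1855, 1802 and 1726 FPKM in control cells and 838, 832 and 826 FPKM after silencing. It fell by at least 2-fold, with a log2 fold change of −1.11 (SE 0.033, adjusted p = 1.59e-06, limma), and −0.87 after quantile normalization. The part of these epithelial, leukocyte and mesenchymal markers in the tetraspanin results was not tested.

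**Figure D5:**
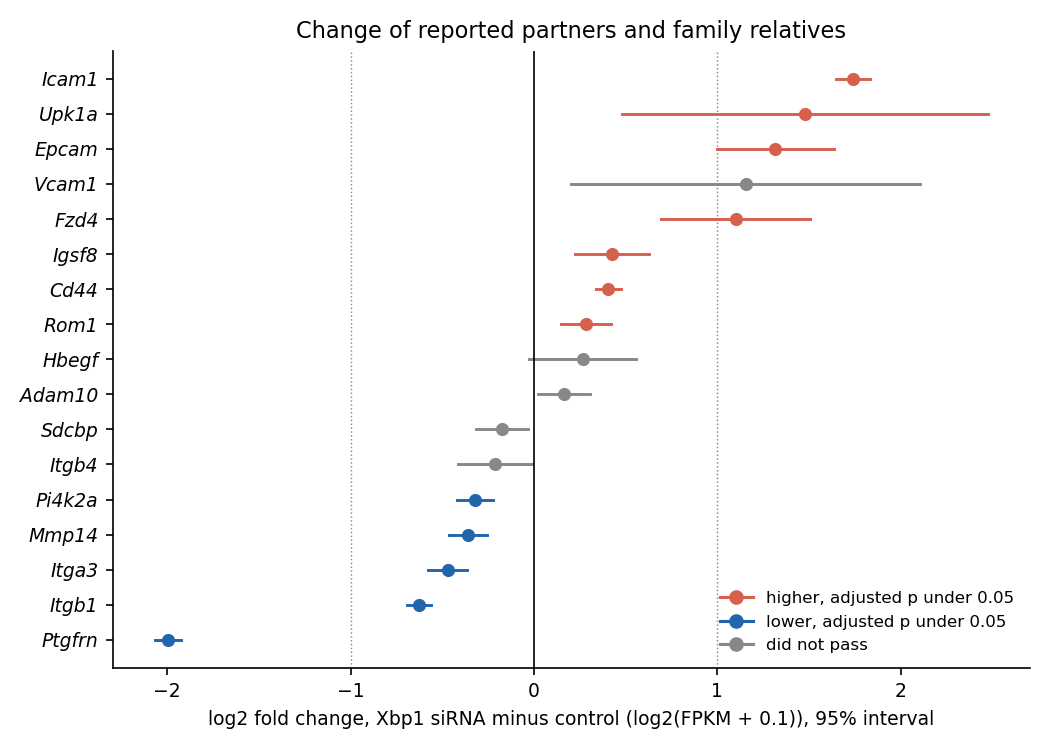
Log2 fold change (*Xbp1* siRNA minus control, on the log2(FPKM + 0.1) scale) of the tested partner genes, with 95% intervals from limma. *Upk1a* and *Rom1*, tetraspanins outside the symbol rule, are also shown. Red genes were higher and blue genes lower at an adjusted p under 0.05, and grey genes did not pass. *Ptgfrn* stands apart at −2.0, and *Igsf8*, of the same protein group, lies at 0.43.

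Of 4 related genes outside the symbol rule, *Rom1* and *Upk1a* were tested and both rose, where 20.2% of all genes did. These genes are not part of the summed tetraspanin levels and shares given above. *Rom1*, a tetraspanin of photoreceptors, had 12.8, 12.5 and 13.7 FPKM in control cells and 16.1, 15.7 and 15.7 FPKM after silencing. It rose by a log2 fold change of 0.28 (SE 0.057, adjusted p = 0.00615, limma). *Upk1a*, a tetraspanin of the urothelium, had 1.29, 2.12 and 0.508 FPKM in control cells and 3.59, 2.94 and 3.51 FPKM after silencing. It rose by a log2 fold change of 1.48 (SE 0.43, adjusted p = 0.0279, limma), and the adjusted p was 0.0553 without control replicate 1 and 0.0571 to 0.0780 without each *Xbp1* siRNA library in turn, and 0.0676 with eBayes without trend. Without control replicate 3 the log2 fold change was 0.97 (adjusted p = 0.0198, limma). *Prph2* and *Upk1b* were listed at 0 in all 6 libraries.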

How the data were processed

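The authors extracted total RNA with a miRNeasy kit and made stranded mRNA libraries (TruSeq), which were sequenced on a HiSeq instrument. They deposited, for each library, FPKM values per gene symbol, 1 file per library with no pooling. The submitters' processing notes name HISAT2 2.1.0 and Cuffdiff 2.2.1, and the genome build and annotation are not given in the sources used here. No raw counts were analysed here, so a count model was not fitted.

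Libraries were grouped by their labels (n = 3 for each condition). The test was limma 3.58.1 (R 4.3.3, lmFit and eBayes with trend) applied to log2(FPKM + 0.1) of genes with a mean of at least 0.1 FPKM, with Benjamini-Hochberg adjustment over all 14361 genes. Fold changes on this scale understate those of low genes. A gene passed at an adjusted p under 0.05, and was called 2-fold changed if its log2 fold change was also 1 or more in size. The procedure was tested on simulated data. The 159 symbols on more than 1 row were kept apart; none is a member.

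FPKM files carry no read totals. Among 3065 weakly expressed genes, 2006 had values falling on whole multiples of 1 step across libraries, within 0.03 reads plus 0.005 per read. The step was taken as 1 read, so read numbers are the fewest that fit, and their intervals (exact binomial, Clopper-Pearson) cover counting error only. The intervals of log2 fold changes are those of limma.

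The members and gene lists were chosen with earlier results of these data known. Members and partners were named by a fixed rule: values per library for members called 2-fold, for *Cd9*, *Cd63*, *Cd81*, *Cd82* and *Cd151*, for TspanC8 members tested and for the 5 most abundant; other lists by the genes called 2-fold and *Adam10*, *Igsf8*, *Ptgfrn*, *Itgb1* and *Sdcbp*. The other members and partners with values, the abundance ratios and the recomputed values of partners were chosen after the data were seen. All 28 members have an entry in the RefSeq table of the assembly CriGri-PICRH-1.0, used for names and neighbours. Intervals of read ratios were computed with scipy 1.17.1 under Python 3.11.15. The numbers 1 to 3 of the libraries were not taken as pairs. A leukocyte marker of the list is not reported here.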

Additional observations from a re-analysis of the deposited data

How the results depend on the processing

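The tested members were recomputed under 14 alternatives: pseudocounts of 1 and 0.01, a filter at 1 FPKM or none, median-ratio scaling, quantile normalization, eBayes without trend, the replicate block, and leaving out each library. Of 286 values for 21 members, 263 kept their direction and their side of an adjusted p of 0.05, 15 were weaker, 3 stronger and 5 reversed; 14 members kept both under every alternative that gave a value. The reversed values belong to *Tspan4*, with a log2 fold change of −0.016 to 0.051 over the fits that left a library out, and *Tspan5*, with −0.0052 to 0.12; neither passed the test. The numbers of members that rose (10 to 12) and fell (2 to 3) stayed within 1.5 times. The number that rose includes *Tspan33* in every fit that tested it. The number called 2-fold higher was 0 with a pseudocount of 1 and 0 with the filter at 1 FPKM, which *Tspan33* does not reach, 2 with a pseudocount of 0.01, and 1 to 2 without each library in turn, where *Tspan12*, *Cd82* or *Cd37* (3 reads in all) was added. The number called 2-fold lower was 0 with a pseudocount of 1 and 0 with the filter at 1 FPKM, and 0 to 1 without each library. The median log2 fold change of the members was 0.30 with a pseudocount of 1, 0.31 with the filter at 1 FPKM, 0.32 without a filter and 0.49 after quantile normalization, and 0.34 to 0.40 without each library; the cause was not tested. The median of all genes was 0.0063 in the main fit, 0.0036 with median-ratio scaling and 0.016 after quantile normalization.

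With the replicate number as a block, 11 members rose and 3 fell, and *Tspan17* was the only member whose call was lost (log2 fold change 0.30, adjusted p = 0.0611, limma). Same-numbered libraries did not deviate together (Pearson's r across genes −0.029, −0.027 and −0.012 after removing the group mean), so the numbers were not treated as a pairing. The 10 members whose reads could be counted had 25 reads or fewer in every library.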
